A study of Homo sapiens with 14 samples.

Results

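FN1, the gene of fibronectin, is described here as 1 gene of the 59250 gene symbols whose RNA-seq counts were deposited for a pair of established human cancer cell lines. It was chosen by its measured levels, selected on these same counts: near silence in wild-type NUGC4, higher counts in NUGC4 with ARID1A knocked out or knocked down, and a place among the most abundant transcripts of HepG2. Those levels are therefore given as a description, with no test. The comparison of FN1 between the HepG2 groups, and the comparisons of the other genes of the fibronectin system, are tested. ARID1A is the DNA-binding subunit of BAF, a complex that remodels nucleosomes.

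The libraries are described as made from poly(A)-captured RNA, but their shares of ribosomal RNA, given below, differ widely. NUGC4, a gastric cancer line, gave 4 libraries of wild-type parental cells, 2 named as ARID1A knockout, 1 that could be matched to the CRISPRi vector control, and 2 of ARID1A CRISPRi knockdown through a single guide, sgRNA1. CRISPRi is gene repression by a guided, non-cutting Cas9 fusion. The knockout cells were single-cell clones, so a knockout library may also carry what is particular to its clone. HepG2, labelled a hepatocellular carcinoma line, gave 2 empty vector libraries and 2 with CTNNB1 overexpression, in which a lentivirus carried a FLAG- and GFP-tagged CTNNB1 without exon 3 under the EF1α promoter. Exon 3 holds the degradation signal of beta-catenin. The depth was 9167761 to 17668394 counts per NUGC4 library and 13138681 to 23914120 per HepG2 library. Whether replicates were grown as separate cultures is not stated in the labels, and p-values then reflect only how far libraries of a group lie apart, which may be technical.

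Fibronectin is a large secreted glycoprotein that cells assemble into fibrils of the extracellular matrix. Hepatocytes secrete it into blood plasma as a soluble dimer, and other cells, fibroblasts above all, make a cellular form that includes alternative exons. Cells hold it mainly through integrin alpha5 beta1, which links the fibrils to focal adhesions and the actin cytoskeleton. In carcinoma cells it is widely used as a marker of a mesenchymal state.

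In RefSeq, FN1 (gene 2335) lies on chromosome 2 at 215360865 to 215436068 of GRCh38.p14, is transcribed from the minus strand, and has 18 curated transcripts. The RefSeq sequence before its start site, chr2:215436069-215436318 read on the minus strand, is shown because the FN1 counts of these libraries differ by orders of magnitude and this is the stretch where its transcription starts. Capitals mark, in order, a cAMP response element, a CCAAT box and a TATA-like element.
FN1 promoter: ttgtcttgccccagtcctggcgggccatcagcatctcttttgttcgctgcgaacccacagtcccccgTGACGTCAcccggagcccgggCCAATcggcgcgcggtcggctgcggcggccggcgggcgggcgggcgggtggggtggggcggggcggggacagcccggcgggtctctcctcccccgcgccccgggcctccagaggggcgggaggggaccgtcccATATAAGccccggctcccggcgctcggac
Both strands were searched, and the motifs were picked after the sequence had been seen. The cAMP response element TGACGTCA starts at -183 from the start site and occurs in 1.65% of 35116 RefSeq promoters of the same length. CCAAT at -162 occurs in 32.0% and ATATAAG at -29 in 1.73% of them. GGGCGG, the GC box bound by SP1, occurs 6 times in the FN1 stretch and at least once in 42.6% of promoters. The GC content of the stretch is 76.4%, beside a median of 58.0% over all. The letters CTTTGAT (TCF), TGANTCA (AP-1), CACCTG (SNAI and ZEB), CAGACA (SMAD) and GGAATG (TEAD) are not in this window, and occur in 2.26%, 6.57%, 17.5%, 13.6% and 11.9% of promoters.

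ARID1A itself checks the NUGC4 labels. Wild-type libraries 1 to 4 held 128, 137, 117 and 118 CPM of ARID1A (counts per 1000000 counts of the library). Knockout replicate 1 held 34.3 CPM and the sgRNA1 libraries 57.6 and 53.5 CPM, all below every wild-type library and the vector library (140 CPM). The library labelled knockout replicate 2 held 141 CPM, above all 4 wild-type libraries, which goes against its label. It also had 333 counts of ZNF10, whose repressor domain is used in CRISPRi fusions, beside 374 in the vector library and at most 2 in any wild-type library. The sgRNA1 libraries had 1 and 0 counts of ZNF10, and 426 and 498 counts of ZIM3, the source of another such domain, where the vector library had 0. The vector and sgRNA1 libraries thus differed in these counts too, so in every sgRNA1 comparison the construct and the ARID1A knockdown cannot be told apart. The labels list 2 vector libraries, but only 1 column matched that group, and 1 column whose name carries the knockout label matched no sample and was left unused. Whether the 2nd vector library stands under a knockout name was not tested. The main counts and the knockout changes below are therefore given both ways, as named and with the library labelled knockout replicate 2 dropped. With it dropped, the knockout is 1 library, and its standard errors and p-values take their spread from the other groups. Those values hold no knockout replication.

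Wild-type NUGC4 held hardly any FN1. The 4 libraries had 20, 19, 10 and 21 counts, or 1.55, 1.72, 1.09 and 2.19 CPM (1.64 ± 0.45 CPM, SD, n = 4). The 95% exact counting intervals, which cover counting error only, ran from 0.949 to 2.40 CPM in replicate 1 and from 0.523 to 2.01 CPM in replicate 3. All 4 intervals overlap.

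The CRISPRi vector library held 332 counts, or 20.8 CPM (interval 18.6 to 23.1). The library labelled knockout replicate 2 held 427 counts, or 25.5 CPM (interval 23.1 to 28.0). These neighbours in the order of levels lay 1.23-fold apart, and both lay above every wild-type library, the vector library 12.7-fold above the wild-type mean.

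Knockout replicate 1 held 6627 counts of FN1, or 499 CPM (interval 487 to 511). This was 19.6-fold the level in the library labelled knockout replicate 2, so the group as named gave 262 ± 335 CPM (SD, n = 2), a spread wider than its mean. The sgRNA1 libraries held 19045 and 19857 counts, or 1169 and 1124 CPM (1146 ± 32 CPM, SD, n = 2). Their mean was 2.30-fold above knockout replicate 1 and 700-fold above the wild-type mean. With a single library of reduced ARID1A in the knockout group, the step between knockout and sgRNA1 has no replicate check.

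In HepG2 the vector libraries held 308228 and 430028 FN1 counts, or 23460 and 22542 CPM. The CTNNB1 libraries held 432734 and 545506 counts, or 21483 and 22811 CPM. The groups overlap. FN1 took 2.35%, 2.25%, 2.15% and 2.28% of all counts in these 4 libraries and was the gene with the most counts in 3 of them. In CTNNB1 replicate 1 it came second after ALB, the gene of serum albumin, with 449324 counts. The HepG2 vector mean was 20.1-fold the sgRNA1 mean.

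The place of FN1 among genes moved with these levels. Per length (CPM per kb of the longest GENCODE v29 basic transcript, 8905 bases for FN1), wild-type libraries held 0.122 to 0.246 CPM per kb. That was above only 6.90% to 12.3% of the detected genes with a known length. The vector library and the library labelled knockout replicate 2, at 2.33 and 2.86 CPM per kb, lay above 41.2% and 44.0%. Knockout replicate 1, at 56.0 CPM per kb, lay above 95.1%, place 892 of 18354. The sgRNA1 libraries, at 131 and 126 CPM per kb, lay above 98.0% and 97.8%. In HepG2 FN1 was 9th or 10th by CPM per kb in each library, at 2634, 2531, 2412 and 2562 CPM per kb.

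On the fitted scale, ordered from the highest fold change, FN1 stood near the top of all genes tested in each NUGC4 comparison. The log2 fold change in the knockout as named was 7.44 ± 0.94 (SE), 17th from the highest of 19124 genes. Without the library labelled knockout replicate 2 it was 8.37 ± 0.13, 16th of 18913, and with that library as the only knockout it was 4.04 ± 0.16. For sgRNA1 against vector the log2 fold change was 5.88 ± 1.54 as named and 5.88 ± 0.18 in the fit without the library labelled knockout replicate 2, 20th in each fit. For the vector against wild type it was 3.74 ± 1.04, 67th from the highest but 898th by size of change in either direction. The knockout and vector comparisons share the wild-type libraries.

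Library make-up moved with part of this order. Nuclear ribosomal RNA took 8.04% to 11.7% of counts in the wild-type libraries and 6.30% in knockout replicate 1, against 0.161% to 0.176% in the other 4 NUGC4 libraries. Mitochondrial genes took 0.832% to 2.50% in the first 5 and 7.96% to 8.23% in the other 4. RNA45SN4, a precursor of ribosomal RNA, had the most counts of any gene in each of the first 5 libraries. Whether poly(A) capture was alike in both kinds of library was not tested. Within the first 5 libraries FN1 had 499 CPM in knockout replicate 1 and at most 2.19 CPM in wild type. Within the other 4 it had at least 1124 CPM in sgRNA1 and 20.8 CPM in vector. The vector comparison with wild type crosses these kinds and rests on 1 vector library. In it, for FN1 and every other gene, the kind of library and the vector cannot be told apart. The knockout comparison as named crosses them in part. Its replicate 1 is among the first 5 libraries, but its replicate 2 held 0.161% ribosomal RNA and 8.23% mitochondrial counts. Every knockout change or count given as named therefore mixes library make-up with the knockout label. With replicate 2 dropped, the comparison stays within the first 5.

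Markers of other cell types were low in NUGC4. Of 10 fibroblast markers 6 or 7 were at 0 in each NUGC4 library, among them COL1A2, PDGFRA and THY1 in every one, and the list summed to 22.0 to 23.9 CPM in wild type, 25.1 CPM in knockout replicate 1, 27.0 CPM in the library labelled knockout replicate 2, 29.5 CPM in vector and 29.7 and 31.5 CPM in sgRNA1. Of 5 endothelial markers 3 or 4 were at 0, CDH5 and KDR in every library, and the list reached at most 1.81 CPM, in knockout replicate 1. Hepatocyte markers summed to 10.5 to 18.4 CPM, with the highest sums in sgRNA1, and FGB was at 0 in all 9 libraries. Each of these sums is below the FN1 level of knockout replicate 1 and sgRNA1, but the fibroblast sums lie above FN1 in wild type and vector. Most of each fibroblast sum in NUGC4 came from COL1A1. Whether other cells were present was not tested. The summed level of the 10 epithelial markers was 5103 to 5891 CPM in wild type, 9042 CPM in knockout replicate 1, 10234 CPM in vector and 12121 and 12560 CPM in sgRNA1, most of it from KRT8, KRT18 and KRT19. Of 9 epithelial markers tested, 5 were higher (55.6%) and 2 lower (22.2%) in the knockout without the library labelled knockout replicate 2, beside 19.5% and 18.7% of all genes, and as named 6 were higher (66.7%) and 0 lower, beside 13.5% and 9.78%. The lower ones were CDX2, an intestinal transcription factor, with 4.12 to 6.76 CPM in wild type and 0.753 CPM in knockout replicate 1 (-2.61 ± 0.47, edgeR adjusted p = 0.00026), and VIL1, the microvillus protein villin, with 223 to 258 CPM and 130 CPM (-0.78 ± 0.12, adjusted p = 3.7e-05). CDX2 was also lower in sgRNA1, at 1.47 and 2.43 CPM, than in vector, at 5.13 CPM (-1.28 ± 0.36, adjusted p = 0.031 without the library labelled knockout replicate 2 and 0.78 as named). In HepG2 the hepatocyte list summed to 38860 and 38937 CPM with vector and 58696 and 55860 CPM with CTNNB1. In bulk RNA, more cells with FN1 and more FN1 RNA per cell cannot be told apart.

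CTNNB1 without exon 3 left no detected difference in FN1 in HepG2. The log2 fold change against vector was -0.05 ± 0.06 (SE, n = 2 per group), and edgeR's quasi-likelihood test gave a Benjamini-Hochberg adjusted p of 0.629 over 15703 genes. Its 95% interval ran from 0.884-fold to 1.06-fold, which leaves room for a decrease or an increase within those bounds. In the same fit 24.2% of genes passed an adjusted p of 0.05. ALB rose (log2 fold change 0.88 ± 0.06, adjusted p = 4.7e-11 in edgeR), from 11721 and 11673 CPM with vector to 22306 and 20446 CPM with CTNNB1. In CTNNB1 replicate 1 it thus stood above FN1.

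The genes around FN1 did not share its range. RefSeq lists 16 other entries within 500 kb, of which 15 are in the table and 2 are protein-coding. ATIC, an enzyme of purine synthesis whose annotated end overlaps that of FN1, lay between 85.2 and 98.9 CPM in all 9 NUGC4 libraries. Its log2 fold changes were 0.13 ± 0.11 in the knockout as named (adjusted p = 0.39), 0.11 ± 0.12 for sgRNA1 against vector without the library labelled knockout replicate 2 (adjusted p = 0.68) and -0.13 in HepG2 (adjusted p = 0.10), all in edgeR. ABCA12, a lipid transporter whose gene lies 222239 bases away, lay between 0.98 and 5.25 CPM in NUGC4. Its knockout change did not pass (0.16 as named, edgeR adjusted p = 0.83), nor without the library labelled knockout replicate 2 (-0.98, adjusted p = 0.12). Without that library it was lower in sgRNA1 than in vector (-1.23 ± 0.37, adjusted p = 0.044) and higher in vector than in wild type (1.39 ± 0.33, adjusted p = 0.0026), and neither passed as named (adjusted p = 0.71 and 0.11). FN1-DT, a non-coding RNA whose gene overlaps the FN1 start, had 0 counts in every NUGC4 library, sgRNA1 included, and 5, 3, 9 and 7 counts in the HepG2 libraries. The strand setting of the counting is not given, so reads of overlapping genes are uncertain.

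**Figure D1:**
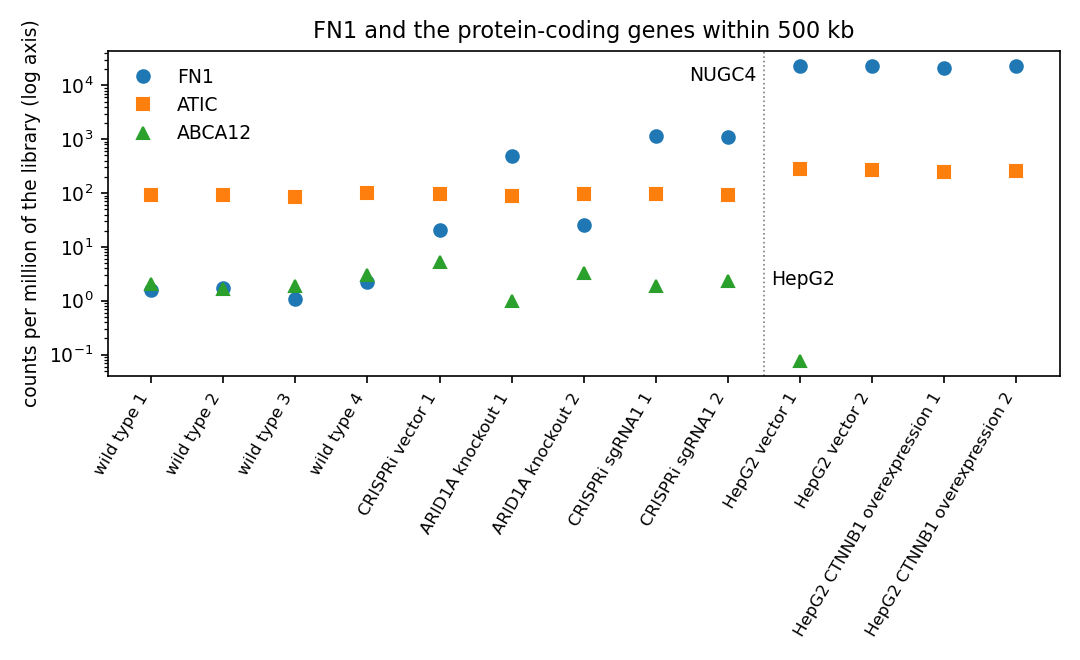
Levels of FN1 and of its neighbours ATIC and ABCA12 in each of the 9 NUGC4 and 4 HepG2 libraries, in CPM on a log axis. FN1 spans 1.09 to 23460 CPM, while ATIC stays between 85.2 and 98.9 CPM in NUGC4. Libraries with 0 counts of ABCA12, 3 of the 4 of HepG2, have no point for it.

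The other genes of the fibronectin system were taken from 6 lists of 115 genes, by role. Of these, 85 passed the filter on low counts in NUGC4. A gene high in only 1 group can pass through that group. Against wild type, 24 of the 85 (28.2%) were higher and 4 (4.71%) lower in the knockout as named, beside 13.5% and 9.78% of all genes (23.2% in either direction). When the library labelled knockout replicate 2 was dropped these were 30 (35.3%) and 10 (11.8%), beside 19.5% and 18.7% (38.2%). The median log2 fold change of the 85 was 0.32 as named, with a median of all genes near 0, and 0.13 without that library, beside -0.07 over all genes. For sgRNA1 against vector none of the 85 passed as named in edgeR, where 0% of all genes passed in either direction. At an unadjusted p under 0.05 in edgeR the counts were 7 higher and 5 lower, beside 625 and 795 of all 19124 genes tested. The DESeq2 Wald test called 2 and 1 of the listed genes, and its share over all genes was not computed. The fit that leaves out the library labelled knockout replicate 2 gave 12 higher (14.1%) and 8 lower (9.41%), beside 4.62% and 4.11% of all genes (8.73% in either direction). For the vector against wild type they were 12 higher (14.1%) and 2 lower (2.35%), beside 7.74% and 5.41% (13.1%). In the fit that leaves out the library labelled knockout replicate 2 they were 35 (41.2%) and 15 (17.6%), beside 23.5% and 20.7% (44.2%). Leaving out any single wild-type library brought the knockout counts to 13 or 14 higher and 2 lower, and the vector counts to 2 or 3 higher and 0 or 1 lower. Shares over all genes were not computed for fits without a wild-type library or without knockout replicate 1. The knockout counts without knockout replicate 1 were 35 and 19.

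Among 9 receptor genes tested, 3 (ITGA5, ITGB1 and ITGB6) were higher and 0 lower in the knockout as named, where the ITGB6 call was lost without any single wild-type library. In the fit without the library labelled knockout replicate 2 these 3 and ITGAV were higher and ITGB7 lower. The shares over all genes are those given above (13.5% and 9.78% as named, 19.5% and 18.7% without that library). ITGB6 had 0.109 to 0.416 CPM in wild type and 2.71 in knockout replicate 1. It had 0.298 CPM in the library labelled knockout replicate 2, 0.688 in vector and 0.0614 and 0.113 in sgRNA1. It passed the filter on low counts only through knockout replicate 1, so its call is not separate support. ITGB7, a beta chain of leukocyte integrins, had 9.16 to 12.6 CPM in wild type and 2.64 CPM in knockout replicate 1. Its log2 fold change was -1.92 ± 0.28 without the library labelled knockout replicate 2. That library and the vector library each held 14.9 CPM, and sgRNA1 held 16.6 and 20.3 CPM, all above wild type. ITGA5, the alpha chain of the main fibronectin receptor, had 10.3 to 11.3 CPM in wild type, 18.9 in knockout replicate 1, 13.2 in the library labelled knockout replicate 2, 13.3 in vector and 15.9 in both sgRNA1 libraries. ITGB1, its beta chain, had 115 to 156 CPM in wild type, 263 in knockout replicate 1, 184 in the library labelled knockout replicate 2, 191 in vector and 262 and 234 in sgRNA1. Every other NUGC4 library thus lay above the wild-type range for these genes. In the knockout as named ITGA5 rose by a log2 fold change of 0.68 ± 0.18 (edgeR adjusted p = 0.028) and ITGB1 by 0.88 ± 0.17 (adjusted p = 0.011). When the library labelled knockout replicate 2 was left out these were 0.92 ± 0.17 (adjusted p = 0.00025) and 1.12 ± 0.12 (adjusted p = 1.3e-06). The ITGA5 call was lost without knockout replicate 1 or without any single wild-type library.

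For sgRNA1 against vector none of the 9 receptor genes passed in edgeR as named or in the fit without the library labelled knockout replicate 2, beside 0% and 8.73% of all genes. ITGB1 passed with only the compared groups in the fit (adjusted p = 2.4e-06). In the fit that leaves out the library labelled knockout replicate 2, ITGB1 gave 0.47 ± 0.15 (adjusted p = 0.057) and ITGA5 0.35 ± 0.19 (adjusted p = 0.30), where FN1 gave 5.88. ITGAV, the alpha chain of RGD-binding integrins, had 65.3 CPM in the library labelled knockout replicate 2, 65.5 in vector and 69.6 and 55.8 in sgRNA1, all below its 80.6 to 104 CPM in wild type, and 122 CPM in knockout replicate 1. Its change in the knockout was 0.13 as named (edgeR adjusted p = 0.70) and 0.52 ± 0.13 without the library labelled knockout replicate 2 (adjusted p = 0.0048). The ratio of FN1 to ITGB1 in CPM per kb went from 0.0040 to 0.0060 in wild type, through 0.0462 in vector and 0.808 in knockout replicate 1, to 1.90 and 2.04 in sgRNA1 and 25.9 to 34.2 in HepG2. SDC2, a syndecan that binds the heparin sites of fibronectin, was at 0 in all NUGC4 libraries and at 291 to 337 CPM in HepG2. CD44, a hyaluronan receptor that also binds fibronectin, was at 2281 to 3444 CPM in NUGC4 and at 0 in HepG2.

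Matrix partners moved in both directions, more of them up. Of 13 tested, 5 (38.5%) were higher and 1 (7.69%) lower in the knockout as named, beside 13.5% and 9.78% of all genes. COL6A1, a chain of the microfibril-forming collagen VI, had 93.7 to 112 CPM in wild type, 338 in knockout replicate 1, 145 in the library labelled knockout replicate 2, 139 in vector and 184 and 192 in sgRNA1. It rose in the knockout, by 1.35 ± 0.27 as named (edgeR adjusted p = 0.011) and 1.84 ± 0.10 without the library labelled knockout replicate 2 (adjusted p = 1.7e-10). In sgRNA1 against vector it passed without that library (0.53 ± 0.13, adjusted p = 0.012) and not as named (adjusted p = 0.84). TGM2, a transglutaminase that crosslinks fibronectin, had at most 1.46 CPM in wild type and 9.26 CPM in knockout replicate 1 (2.61 ± 0.48, adjusted p = 0.0092 as named, and 3.25 ± 0.32, adjusted p = 2.2e-07 in the fit without the library labelled knockout replicate 2). THBS1, the matricellular protein thrombospondin, had 48.1 to 52.8 CPM in wild type and 47.7 in vector, against 18.1 in knockout replicate 1 and 20.5 and 23.3 in sgRNA1. It fell by 1.35 on the log2 scale in the knockout (adjusted p = 1.3e-06) and by 1.03 in sgRNA1 (adjusted p = 9.7e-05) when the library labelled knockout replicate 2 was left out. As named it did not pass in the knockout (adjusted p = 0.13). HSPG2, the basement membrane proteoglycan perlecan, had 569 to 734 CPM in wild type, 372 in knockout replicate 1, 324 in the library labelled knockout replicate 2, 318 in vector and 317 and 313 in sgRNA1, so all 5 other libraries lay below wild type. It fell in the knockout (-0.80 ± 0.15, adjusted p = 0.010 as named, and -0.70 ± 0.14, adjusted p = 0.00051 in the fit without the library labelled knockout replicate 2) and in the vector against wild type (-0.97 ± 0.20, adjusted p = 0.026 as named, a call lost without wild-type replicate 1, 2 or 3). SPARC and POSTN, matricellular proteins common in stroma, were at 0 in all NUGC4 libraries.

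CCN2, a matricellular protein induced by serum and by YAP, did not follow FN1. It had 6.87 to 9.30 CPM in wild type, 12.2 in knockout replicate 1, 106 and 111 in the library labelled knockout replicate 2 and vector, and 23.8 and 28.6 in sgRNA1. Its highest values were thus in the libraries with 20.8 and 25.5 CPM of FN1. The knockout change of 3.08 ± 0.60 as named (edgeR adjusted p = 0.011) was 0.81 ± 0.19 without the library labelled knockout replicate 2 (adjusted p = 0.0022). In sgRNA1 against vector, without that library, CCN2 fell by 1.98 on the log2 scale (adjusted p = 1.3e-07).

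The list of proteases that cut fibronectin, with their inhibitors and activators, had 12 genes tested. In the knockout as named 5 (41.7%) were higher and 1 (8.33%) lower, beside 13.5% and 9.78% of all genes. Of the plasminogen system, whose proteases cut fibronectin, PLAUR and PLAU rose in the knockout. PLAUR, the cell-surface receptor of urokinase, had 10.3 to 10.6 CPM in wild type, 65.4 in knockout replicate 1, 42.3 in the library labelled knockout replicate 2, 47.4 in vector and 75.8 and 74.8 in sgRNA1. It rose in the knockout as named (2.48 ± 0.17, edgeR adjusted p = 0.00043). The change was 2.78 without the library labelled knockout replicate 2, which leaves 1 knockout library. In the vector, with 1 library of another kind than wild type, the change was 2.27 ± 0.20 (adjusted p = 0.0029). PLAU, urokinase itself, which activates plasminogen, had at most 0.416 CPM in wild type, 7.83 in knockout replicate 1, 2.00 in vector and 4.85 and 6.11 in sgRNA1 (4.44 ± 0.78 in the knockout as named, adjusted p = 0.0078, and 5.28 ± 0.40 without the library labelled knockout replicate 2, adjusted p = 1.1e-08). PLAT, the tissue plasminogen activator, had at most 0.298 CPM in every NUGC4 library but sgRNA1, where it had 4.97 and 5.94 CPM. Knockout replicate 1, where FN1 was high, had 0.0753 CPM of PLAT. For sgRNA1 against vector PLAT gave an edgeR adjusted p of 0.20 as named. Its log2 fold change was 4.49 ± 0.61 without the library labelled knockout replicate 2. PLAT passed the filter on low counts only through the sgRNA1 libraries, the group where it is high. Calls on it in some alternative fits rest on these same libraries and are not separate support.

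TIMP3, an inhibitor of matrix metalloproteases that stays bound to the matrix, ran the other way. It had 8.75 to 11.6 CPM in wild type, 0.753 in knockout replicate 1, 4.83 in the library labelled knockout replicate 2, 7.44 in vector and 2.02 and 1.81 in sgRNA1. Its knockout change was -1.74 ± 0.55 as named (edgeR adjusted p = 0.049) and -3.63 ± 0.37 without the library labelled knockout replicate 2 (adjusted p = 4.8e-07), and the call as named was lost without any single wild-type library. TIMP2, a soluble inhibitor that also takes part in activating MMP2, had 151 to 173 CPM in wild type, 399 in knockout replicate 1, 136 in vector and 234 and 235 in sgRNA1. It rose in the knockout (1.44 ± 0.10, adjusted p = 2.3e-09) and in sgRNA1 (0.89 ± 0.12, adjusted p = 9e-05) when the library labelled knockout replicate 2 was left out. It did not pass as named in the knockout (adjusted p = 0.080).

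At the focal adhesion, 6 of 19 genes (31.6%) were higher and 2 (10.5%) lower in the knockout as named, beside 13.5% and 9.78% of all genes, and the counts were the same without the library labelled knockout replicate 2, beside 19.5% and 18.7%. VCL, the actin linker vinculin, had 158 to 169 CPM in wild type, 256 in knockout replicate 1, 183 and 177 in the library labelled knockout replicate 2 and vector, and 278 and 268 in sgRNA1. FERMT1, a kindlin that activates integrins in epithelial cells, had 174 to 193 CPM in wild type, 266 in knockout replicate 1, 220 in vector and 308 and 306 in sgRNA1. Their knockout changes as named, 0.56 ± 0.14 and 0.49 ± 0.12 (edgeR adjusted p = 0.026 and 0.025), were both lost without any single wild-type library. When the library labelled knockout replicate 2 was dropped they were 0.79 ± 0.10 and 0.65 ± 0.10 (adjusted p = 4.3e-06 and 4.5e-05). TNS3, a tensin that couples integrins to actin, had 600 to 680 CPM in wild type, 244 in knockout replicate 1, 363 and 360 in the library labelled knockout replicate 2 and vector, and 128 and 129 in sgRNA1. It fell in the knockout (-0.96 ± 0.17, adjusted p = 0.0076 as named, and -1.26 ± 0.12, adjusted p = 1.4e-07 in the fit without the library labelled knockout replicate 2). In sgRNA1 it fell without that library (-1.40 ± 0.11, adjusted p = 2.5e-07) and did not pass as named (adjusted p = 0.13).

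**Figure D2:**
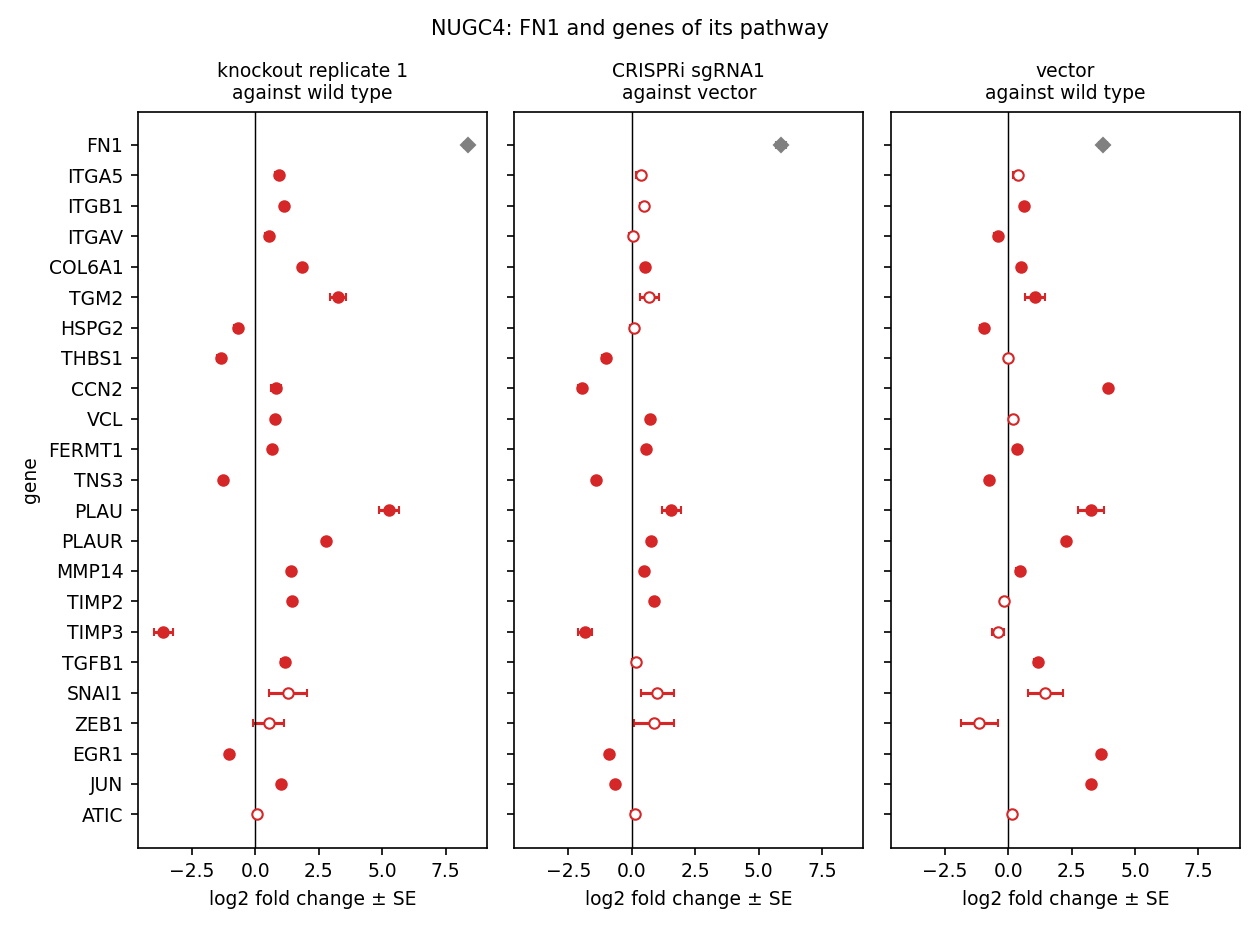
Log2 fold changes with standard errors, from edgeR without the library labelled knockout replicate 2, for listed genes of the fibronectin system in knockout against wild type, sgRNA1 against vector and vector against wild type. The knockout and the vector are 1 library each in this fit. Filled points passed an adjusted p of 0.05, open points did not, and FN1 is a grey diamond with no test; PLAU and PLAUR lie to the right in the knockout and sgRNA1 panels and TIMP3, THBS1 and TNS3 to the left, while CCN2 lies on opposite sides (0.81 and -1.98).

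Among regulators of FN1 transcription, TGFB1, the growth factor known for inducing matrix genes, had 9.63 to 10.5 CPM in wild type and 20.8 to 22.4 CPM in all 5 other NUGC4 libraries. It rose in the knockout against wild type (1.21 ± 0.14 as named, edgeR adjusted p = 0.0017, and 1.18 ± 0.16 without the library labelled knockout replicate 2, adjusted p = 1.2e-05). In the vector the change was 1.16 ± 0.17 (adjusted p = 0.011), again from 1 library of another kind than wild type. Its change in sgRNA1 against vector, where FN1 was higher, did not pass (0.16, adjusted p = 0.65 without the library labelled knockout replicate 2). TGFB2, another TGF-beta ligand, had at most 0.416 CPM in NUGC4. The receptor TGFBR1 had 30.0 to 39.3 CPM in wild type, 23.9 in knockout replicate 1, 14.9 in vector and 12.2 and 8.21 in sgRNA1. The receptor TGFBR2 had 164 to 186, 235, 144, and 212 and 215 CPM in the same order. SMAD2, of the same pathway, had 189 to 232, 162, 113, and 107 and 99.7 CPM. Of 23 genes tested in this list, 5 (21.7%) were higher and 0 lower in the knockout as named, beside 13.5% and 9.78% over all.

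The transcription factors of the mesenchymal switch were low throughout NUGC4. SNAI1 had at most 0.521 CPM in wild type, 0.753 in knockout replicate 1 and 2.21 and 1.13 in sgRNA1, and its change passed in no NUGC4 comparison (edgeR adjusted p = 0.16 in the knockout as named). ZEB1 had 0.654 to 1.67 CPM in wild type, 1.36 in knockout replicate 1 and 0.491 and 1.02 in sgRNA1, where FN1 was highest. SNAI2 and ZEB2 were at 0 in all 9 libraries. TWIST1, another such factor, had 0.361 to 0.833 CPM in wild type and 0.678 in knockout replicate 1. It had 1.73 CPM in the library labelled knockout replicate 2, 3.25 in vector and 1.29 and 1.87 in sgRNA1. At these counts a change in SNAI1 or ZEB1 of the size seen for the integrins was not detectable.

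The immediate early factor EGR1, which binds GC-rich promoters, had 64.6 to 72.1 CPM in wild type, 31.2 in knockout replicate 1, 862 and 818 in the library labelled knockout replicate 2 and vector, and 395 and 427 in sgRNA1. Its knockout change was 2.79 ± 0.81 as named (edgeR adjusted p = 0.039) and -1.03 ± 0.12 without the library labelled knockout replicate 2 (adjusted p = 3.6e-06), so the library that goes against its label turned the direction. The call as named was also lost without any single wild-type library. JUN, a subunit of AP-1, had 47.1 to 53.9 CPM in wild type, 93.5 in knockout replicate 1, 489 and 460 in the library labelled knockout replicate 2 and vector, and 272 and 275 in sgRNA1. JUN and EGR1 were thus highest in the 2 libraries with intermediate FN1, and without the library labelled knockout replicate 2 both fell in sgRNA1 against vector (-0.66 ± 0.11 and -0.90 ± 0.11, adjusted p = 0.00067 and 4.3e-05). Of the splicing factors that act on the alternative fibronectin exons, 9 were tested. None was called in the knockout as named, where 23.2% of all genes were and 1 passed at an unadjusted p under 0.05, or in sgRNA1 as named or in the fit without the library labelled knockout replicate 2 (0% and 8.73% of all genes; 0 and 1 of the 9 at an unadjusted p under 0.05). In knockout replicate 1 ESRP1 had 123 CPM, against 95.4 to 111 in wild type. ESRP2, the other epithelial splicing factor, had 47.3 CPM against 81.1 to 98.0, and SRSF1 271 against 393 to 429. The absence of calls in the knockout holds only as named. The fit without the library labelled knockout replicate 2 rests on that 1 knockout library. In it the median log2 fold change of the 9 in the knockout was -0.15, beside -0.07 over all genes. In the vector against wild type 5 of 9 (55.6%) were higher in that fit, beside 23.5% of all genes, and 0 as named.

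In HepG2, where FN1 did not differ detectably, 85 listed genes were tested as well. With CTNNB1, 16 (18.8%) were higher and 17 (20.0%) lower, beside 12.8% and 11.4% of all genes. The median log2 fold change of the 85 was 0.03, beside 0.00 over all genes.

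The genes that rose were led by plasma proteins of the liver that meet fibronectin in clots and matrix. FGB, a chain of fibrinogen, had 199 and 216 CPM with vector and 675 and 576 CPM with CTNNB1 (1.60 ± 0.07, edgeR adjusted p = 1.4e-15). FGA and FGG, the other chains, rose by 1.14 ± 0.06 and 1.11 ± 0.07 (adjusted p = 9.3e-14 and 7.1e-13). VTN, the adhesive plasma protein vitronectin, went from 156 and 153 CPM to 304 and 325 CPM (1.03 ± 0.06, adjusted p = 7e-13). PLG, the precursor of the fibronectin-cutting protease plasmin, went from 12.6 and 13.3 CPM to 63.2 and 69.0 CPM (2.36 ± 0.09, adjusted p = 1.4e-16). FN1, itself a plasma protein of the liver, stayed at 21483 to 23460 CPM.

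Genes that fell included CCN2, from 958 and 931 CPM to 510 and 534 CPM (-0.85 ± 0.06, edgeR adjusted p = 1.7e-11), and LOX, an enzyme that crosslinks collagen, from 440 and 437 CPM to 287 and 307 CPM (-0.56 ± 0.06, adjusted p = 5.5e-08). JUN fell as well, from 53.4 and 47.3 CPM to 25.8 and 29.6 CPM. TIMP3 rose (0.63 ± 0.07) and TIMP2 fell (-0.73 ± 0.10, adjusted p = 6.1e-06). Of 7 receptor genes tested only ITGAV (14.3%) passed, and it fell (-0.24 ± 0.07, edgeR adjusted p = 0.015). Over all genes 11.4% were lower and 24.2% passed in either direction. The ITGAV call was lost without CTNNB1 replicate 2 or vector replicate 2. ITGA5 had at most 0.21 CPM in HepG2. ZEB1, at 7.54 and 8.70 CPM with vector and 10.8 and 11.1 CPM with CTNNB1, rose by 0.42 ± 0.13 (adjusted p = 0.016), a call lost without vector replicate 1. TGFB1 and SNAI1 did not pass (adjusted p = 0.13 and 0.54).

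**Figure D3:**
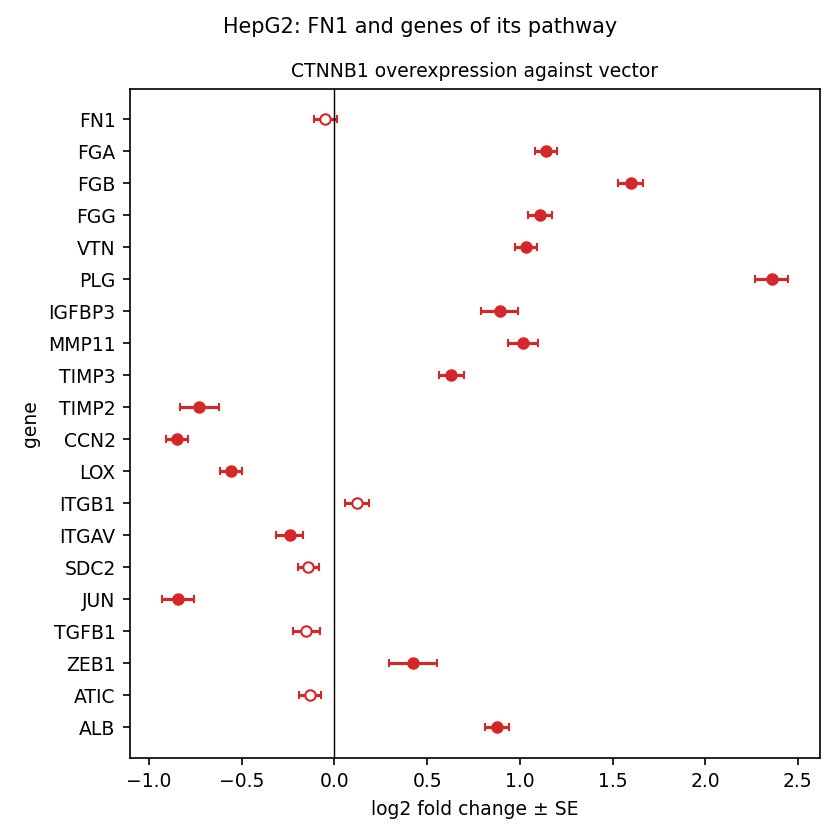
Log2 fold changes with standard errors of FN1 and listed genes in HepG2 with CTNNB1 overexpression against vector, from edgeR, with filled points for genes that passed an adjusted p of 0.05 and open points for those that did not. FN1 lies at -0.05, the fibrinogen chains, VTN and PLG between 1.03 and 2.36, and CCN2 and JUN at -0.85.

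Genes whose levels followed FN1 across libraries were ranked over the whole table. Over the 9 NUGC4 libraries the Pearson correlation of log2 CPM with FN1 was at least 0.95 for 333 of 11101 protein-coding genes with 5 CPM or more somewhere. It was highest for PSMD14 (r = 0.997), a deubiquitinase of the proteasome, TGFA (r = 0.996), a ligand of the EGF receptor, NARS1 (r = 0.996), C12orf75 (r = 0.995), MCUB (r = 0.994), GSR (r = 0.993), ACSL5 (r = 0.993), SLC2A1 (r = 0.993), FERMT1 (r = 0.992) and RIMKLB (r = 0.992). TGFA ran from 96.0 to 103 CPM in wild type, through 130 and 138 in the library labelled knockout replicate 2 and vector, to 211 in knockout replicate 1 and 254 and 244 in sgRNA1, an order like that of FN1 over a far narrower range. ZNF862 was the most opposite (r = -0.998). These libraries share 4 groups and 2 kinds of RNA make-up, and FN1 was itself chosen for separating them, so the correlations are a description of these libraries. Over all 13 libraries, with 204 of 12016 genes at 0.95 or more, the closest were ARID3B (r = 0.990), FUCA2, MCFD2, EPB41L4B, SEC13, PDIA4, NCOA3, FAH, CKAP4 and CALU (r = 0.985). Those 13 points share the difference between the 2 lines.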

How the data were processed

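The authors deposited whole-number read counts per gene symbol in 1 table of 59250 symbols. The submitters' processing notes name STAR 2.7.10a and the build hg38. How reads were counted, with which annotation and with which strand setting is not given in the sources used here. Of 14 columns 13 were matched to samples by name, and 1, whose name carries the knockout label, was used in no step. The labels' 2nd vector library thus has no column here.

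Levels are CPM of the total count. The test was edgeR 4.0.16's quasi-likelihood test, run in R 4.3.3 (TMM, filterByExpr, Benjamini-Hochberg adjustment over all genes, threshold 0.05). Each line had its own fit, with 9 libraries and 5 residual degrees of freedom in NUGC4 (8 and 4 without knockout replicate 2) and 4 libraries and 2 in HepG2. A group of 1 library borrows its spread from the replicated groups. The functions were tested on simulated data.

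Alternatives were DESeq2 size factors, the DESeq2 1.42.0 Wald test, limma 3.58.1 voom, no filter, only the compared groups, all libraries in 1 fit, the replicate block, and each library left out. Leaving out knockout replicate 2 for the sgRNA1 and vector comparisons was chosen after seeing the data.

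FN1, the gene lists and the tests were chosen with earlier results of these data known. Named genes were FN1, up to 6 per list and comparison by smallest adjusted p, the receptors and regulators ITGA5, ITGB1, ITGAV, TGFB1, TGFB2, SNAI1, SNAI2 and ZEB1, of which the text names a part, and the 10 genes most like FN1 by correlation of log2 CPM (prior count 2). ALB, SDC2, CD44, ITGB7, CDX2, VIL1, COL1A1, SPARC, POSTN, TGFBR1, ZEB2 and TWIST1 were named after their values were seen, as were the motifs. RefSeq held 57841 of the symbols, and 36336 had a GENCODE v29 length. Values of 1 listed gene are not reported here.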

Additional observations from a re-analysis of the deposited data

Results flagged for a closer look

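CCN2 in wild-type NUGC4 had 1 library apart from the others. Replicate 2 held 9.30 CPM, while the other 3 held 6.91, 6.87 and 7.18 CPM. The gap to the nearest value was 0.872 of the group's range, above Dixon's 95% critical value for 4 samples. Chance marks about 1 in 20 groups in this way, and several genes were looked at.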

How the results depend on the processing

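FN1 kept its direction in every NUGC4 alternative run. Its log2 fold change in the knockout ran from 4.04 to 8.37 when 1 library was left out. With the replicate block it was 6.80 for sgRNA1 against vector and 2.99 for vector against wild type. In HepG2 its adjusted p stayed between 0.523 and 1 over the alternatives. The labels do not say that replicate numbers mark pairs, and same-numbered libraries did not deviate together (r of -0.05 and 0.03 in wild type and knockout, -0.08 in HepG2). With the replicate block the knockout count of listed genes went from 24 higher and 4 lower to 0 and 0, and the vector count from 12 and 2 to 0 and 0.

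Leaving out 1 library gave 13 to 35 higher and 2 to 19 lower in the knockout, 2 to 35 higher and 0 to 15 lower in the vector, and 0 to 12 higher and 0 to 8 lower in sgRNA1, each upper end of the last 4 ranges coming without knockout replicate 2. The knockout extremes of 35 and 19 came without knockout replicate 1. With only the compared groups in the fit, 20 genes were higher and 20 lower in sgRNA1, 29 higher and 15 lower in the vector, and 2 lower in the knockout. With all libraries in 1 fit the counts were 1 and 1 in sgRNA1, 20 and 9 in the vector, and 5 and 0 in HepG2. The DESeq2 Wald test gave 2 higher and 1 lower in sgRNA1, 8 lower in the vector and 11 lower in HepG2. Without the filter 1 was higher and 1 lower in sgRNA1 and 4 lower in the vector, and voom also gave 4 there. Shares over all genes were computed only for the main fits and those without knockout replicate 2. Whether these shifts are particular to the listed genes, and their cause, was not tested.

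Some single genes turned direction when 1 library was left out. The knockout change ran from -0.98 to 0.74 for ABCA12, from -1.03 to 3.72 for EGR1 and from 0.52 to -2.39 for ZEB1, the first value of each pair without knockout replicate 2 and the other without knockout replicate 1. It ran from -0.42 to 0.52 for ITGAV and from -0.13 to 1.44 for TIMP2, with the lower end without knockout replicate 1. ITGAV in sgRNA1 ran from -0.13 to 0.16. The calls on CCN2, CCN1, EGR1, FOS, FOSL1 and SMAD2 in the vector against wild type were lost without any single wild-type library. The replicate block ended the knockout call of each listed gene named in the report, and voom ended those of CCN1, CCN2, EGR1, ITGB6 and PLAU. DESeq2 size factors ended that of ITGB6 as well. The depth of wild-type NUGC4, 10 to 21 counts of FN1 per library, limits every fold against it.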
